A study of Homo sapiens with 4 samples.

Results

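The long arm of chromosome 4 is a long, gene-poor stretch of the human genome, and this is an account of where H3K9me2 peaks lay on it in K562 cells with and without a guide against CUX1. Its members were all deposited peaks on chromosome 4 of hg19 that start at 52600000 or later, which were 53584 of the 1000000 peaks of the series. The arm holds 138.6 Mb, from 52600001 to the end of the chromosome at 191154276. The short arm, up to 49200000, served as the comparator and held 18468 peaks. The arm was chosen by its peak coverage in the same 4 libraries, with that coverage already known. Every difference between gCUX1 and gHPRT libraries on it is therefore given as a description, and no test of such a difference is offered as support.

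The K562 line was established from a human myeloid leukemia and grows in culture without limit. The gCUX1 group was made of 2 libraries, replicates 1 and 2, from K562 cells treated with CRISPR and a guide for CUX1, which encodes a transcription factor with a homeodomain, and the labels call these cells a knock-out. The gHPRT group was made of 2 libraries, replicates 1 and 2, from K562 cells treated with CRISPR and a guide against HPRT, a purine salvage enzyme gene used as the targeting control. The labels name no clone and do not say whether replicates came from separate cultures, so the spread between them may be technical, and the peak lists hold nothing that checks the loss of CUX1. The assay was CUT&RUN: a nuclease fused to protein A/G is recruited by an antibody bound to the mark in permeabilised cells, and the DNA that it frees is sequenced. The peak names carry the tag "cux1kd" in both gCUX1 libraries and the tag "sub54" in gHPRT replicate 1 alone, and the labels explain neither.

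H3K9me2 is the dimethyl form of lysine 9 on histone H3. In mammals it is written mainly by the paired methyltransferases G9a and GLP, and it spreads over broad domains of silent, gene-poor chromatin, many of which lie against the nuclear lamina. By gene order in the RefSeq table for GRCh38.p14, used here for gene names and order only, the long arm holds 521 of 20033 protein-coding genes, or 2.60%, on 4.56% of the genome length. The short arm holds 248 of them, or 1.24%, on 1.62%. The genes of the long arm include those for the milk caseins, the albumin family, the alcohol dehydrogenases and the fibrinogen chains, which are used in few tissues, and glycophorin A, a red cell surface protein. Positions of genes on hg19 were not used here, so no window below is assigned to a gene.

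Each library was represented by a list of 250000 peaks, so the lists were equal in number and unequal in covered length. Peaks covered 13.9% and 19.3% of chromosomes 1 to 22 and X in gCUX1 replicates 1 and 2, against 22.8% and 22.4% in gHPRT replicates 1 and 2. The last peak listed had a −log10 p of 1.49 and 1.35 in the gCUX1 libraries and 1.25 and 1.27 in the gHPRT libraries. Read depth is unknown, since the files hold no read counts. Nearly all peaks were weak by the authors' own measure. On the long arm 0 and 5 peaks in the gCUX1 libraries reached a q of 0.05, and 0 and 2 did in the gHPRT libraries.

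The members numbered 14027 and 14259 in the gCUX1 libraries, against 12510 and 12788 in the gHPRT libraries. Both gCUX1 lists thus placed more of their peaks on the arm, 5.61% and 5.70% of each list against 5.00% and 5.12%. The short arm had the same order, with 1.95% and 1.91% of each gCUX1 list against 1.70% and 1.83%, so it was not particular to the long arm. The first peak inside the boundary started at 52684153 and 52687930 in the gCUX1 libraries and at 52683873 and 52697131 in the gHPRT libraries, with folds over the caller's background of 1.97, 1.92, 1.98 and 1.72 in that order. The last short-arm peak on the other side of the centromere ended between 49066499 and 49070568 in the 4 libraries, with folds from 1.65 to 1.87. No library listed a peak between the boundaries, so 0 peaks of chromosome 4 depended on where they were set.

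Peaks covered 17.3% and 24.1% of the long arm in gCUX1 replicates 1 and 2, against 24.9% and 24.7% in gHPRT replicates 1 and 2. Both gCUX1 libraries were below both gHPRT libraries, but gCUX1 replicate 2 lay close to them and gCUX1 replicate 1 far below. The means were 20.7% ± 4.84 in gCUX1 and 24.8% ± 0.128 in gHPRT (SD, n = 2 each), so the difference of -4.12 points was smaller than the SD within the gCUX1 group. Without gCUX1 replicate 1 the difference was -0.697 points, and without gCUX1 replicate 2 it was -7.54 points. As a ratio, gCUX1 replicate 1 kept 0.694 and 0.699 of the coverage of gHPRT replicates 1 and 2, while gCUX1 replicate 2 kept 0.968 and 0.975. The mean ratio was 0.834 on the long arm.

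On the short arm the same ratio was lower. Peaks covered 15.3% and 21.2% of it in the gCUX1 libraries and 23.9% and 25.4% in the gHPRT libraries, with means of 18.2% ± 4.19 and 24.7% ± 1.08 (SD, n = 2 each). The mean ratio was 0.739 there and 0.735 over the genome. Set against the short arm of the same library, long-arm coverage was 1.13 and 1.14 times as high in the gCUX1 libraries, against 1.04 and 0.973 times in the gHPRT libraries. The gCUX1 values lay closely together and above both gHPRT values. Because both arms are read from the same list, the length of a list acts on both, and the difference in this ratio was 0.17 on the log2 scale. In the lists as deposited, coverage of the long arm against the whole genome was 1.24 and 1.25 times as high in the gCUX1 libraries. It was 1.09 and 1.11 times as high in the gHPRT libraries, again without overlap.

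The direction of the coverage difference depended on how many peaks of each list were kept. When the strongest peaks of each list were kept until all 4 covered the same length of the genome as gCUX1 replicate 1, 423.4 Mb, peaks covered 17.3% and 17.002% of the long arm in the gCUX1 libraries and 14.2% and 14.4% in the gHPRT libraries. The gCUX1 libraries were then higher, by a ratio of 1.20, and the libraries of a group lay closer to each other than to the other group. The short arm had 15.3% and 15.02% in the gCUX1 libraries and 13.9% and 14.7% in the gHPRT libraries, a ratio of 1.06. The ratio of long to short arm hardly moved, at 1.13 and 1.13 in the gCUX1 libraries and 1.03 and 0.978 in the gHPRT libraries. Total coverage of the arm was therefore lower or higher in gCUX1 depending on this choice, while its coverage relative to the short arm was higher in gCUX1 under both.

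**Figure D1:**
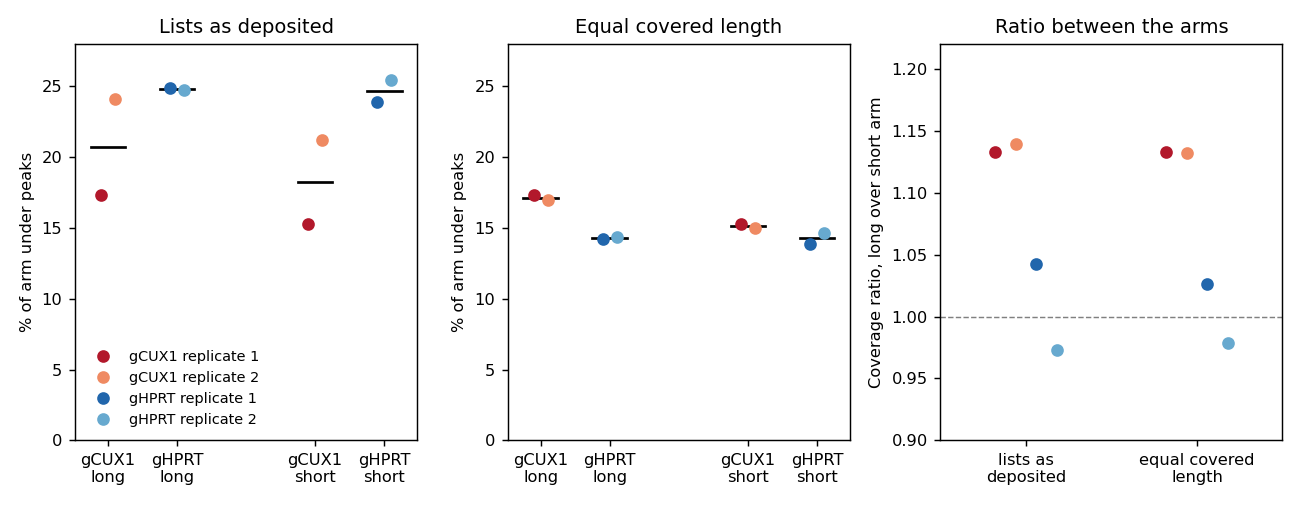
Percent of the long and short arm of chromosome 4 under H3K9me2 peaks in each library (points; bars are means), for the lists as deposited and at equal covered length of the genome, and the ratio of long to short arm coverage. The gCUX1 libraries lie lower on both arms as deposited and higher on the long arm at equal length, and their ratios of 1.13 to 1.14 lie above those of the gHPRT libraries in both cases.

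To place the arm among others, coverage was compared over 41 chromosome parts, into which the chromosomes were split at their longest gap in peaks. Relative to the mean of its library over all parts, the long arm stood 0.39 and 0.53 higher on the log2 scale in the gCUX1 libraries and 0.24 and 0.31 higher in the gHPRT libraries. Sparse parts lower that mean. By mean coverage the arm ranked 17th of the 41 parts in gCUX1 and 22nd in gHPRT, so it was not among the densest. The difference between the groups in the log2 value of the long arm, 0.19 (SE 0.10), was the 9th from the highest of the 41 parts. That of the short arm, 0.01 (SE 0.11), was the 24th. The means include chr20:29519749-62887644 and chrX:61920830-154929189, where gCUX1 was far lower, with differences of -1.34 and -1.52. These parts raise the difference of every other part, but do not change the order of the others. The long-arm value was 0.26 and the highest of the 41 without gCUX1 replicate 1, and 0.11 and again the 9th without gCUX1 replicate 2. Of the 33 parts with a mean of at least 12% in the gHPRT libraries, 1 kept more of its coverage in gCUX1 than the long arm of chromosome 4, with a ratio of 0.887. The median ratio of those 33 parts was 0.740. Of the 8 sparser parts, 7 had a higher ratio, so 8 of all 41 parts did. The limit of 12% was not part of the plan. The part nearest below it, on chromosome 22, had a gHPRT mean of 11.1% and a ratio of 0.838.

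Peaks on the arm were narrower in the gCUX1 libraries. Their median width was 1338 and 1912 bp in the gCUX1 libraries, against 2345 and 2271.5 bp in the gHPRT libraries. The groups did not overlap, and the mean was 29.6% lower in gCUX1. The mean difference of -683 bp was -396 bp without gCUX1 replicate 1. On the short arm the widths were 1232 and 1747.5 bp against 2341 and 2264 bp, a mean 35.3% lower. Long-arm peaks were wider than short-arm peaks in both gCUX1 libraries, by a ratio of 1.09 in each, and as wide in the gHPRT libraries, with a ratio of 1.00 in each. Over chromosomes 1 to 22 and X the medians were 1324 and 1900 bp in the gCUX1 libraries and 2335 and 2275 bp in the gHPRT libraries. Long-arm widths were thus close to those of the genome in every library. The short-arm widths of the gCUX1 libraries lay below them. The smallest peak width in a list also moved with the groups, at 263 and 339 bp in the gCUX1 libraries and 362 and 369 bp in the gHPRT libraries, and so did the smallest gap between peaks, at 1056 and 1360 bp against 1452 and 1477 bp. Their part in the widths was not tested. Divided by the smallest width of its own list, the median width was 5.09 and 5.64 in the gCUX1 libraries and 6.48 and 6.16 in the gHPRT libraries.

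Wide peaks covered less of the arm in the gCUX1 lists as deposited. Peaks of at least 5000 bp covered 2.30 and 7.08 Mb of the arm in the gCUX1 libraries, against 10.3 and 9.52 Mb in the gHPRT libraries. The mean difference of -5.21 Mb stood beside one of -5.70 Mb in all covered length. It was -1.45 Mb at equal covered length, where all covered length differed by 3.96 Mb, and 0.0426 Mb with 1 limit on −log10 p. As deposited, wide peaks made up 9.58% and 21.2% of the covered bases in the gCUX1 libraries and 29.8% and 27.8% in the gHPRT libraries. On the short arm the shares were 6.16% and 18.3% in the gCUX1 libraries and 31.4% and 29.8% in the gHPRT libraries, so the gap between the groups was wider there. The widest member of each library was chr4:95083027-95094183 (11157 bp) in gCUX1 replicate 1, chr4:103829636-103850952 (21317 bp) in gCUX1 replicate 2, chr4:185653891-185672522 (18632 bp) in gHPRT replicate 1 and chr4:81182245-81202537 (20293 bp) in gHPRT replicate 2. No other library covered more than 59.5% of any of these 4 peaks. The widest of them all, that of gCUX1 replicate 2, was covered to 2.44% in gCUX1 replicate 1, 59.5% in gHPRT replicate 1 and 36.4% in gHPRT replicate 2.

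The number of peaks and their spacing were compared in the same way. The gCUX1 libraries listed 101 and 103 peaks per Mb of the arm, the gHPRT libraries 90.3 and 92.3. On the short arm they listed 98.9 and 97.0 against 86.3 and 93.1. The median distance to the next peak was 5518 and 4978.5 bp in the gCUX1 libraries and 4563 and 5011 bp in the gHPRT libraries, so the groups overlapped. Peak names hold a running number, taken here to count each peak called before the lists were cut, and by it there were 179 and 158 called peaks per Mb in the gCUX1 libraries and 160 and 151 in the gHPRT libraries, which also overlapped. Since every list was cut at the same number of peaks, a list with less covered length had narrower peaks over the genome by construction. The authors' median fold of the listed peaks was 1.95 and 1.77 in the gCUX1 libraries against 1.77 and 1.72 in the gHPRT libraries.

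**Figure D2:**
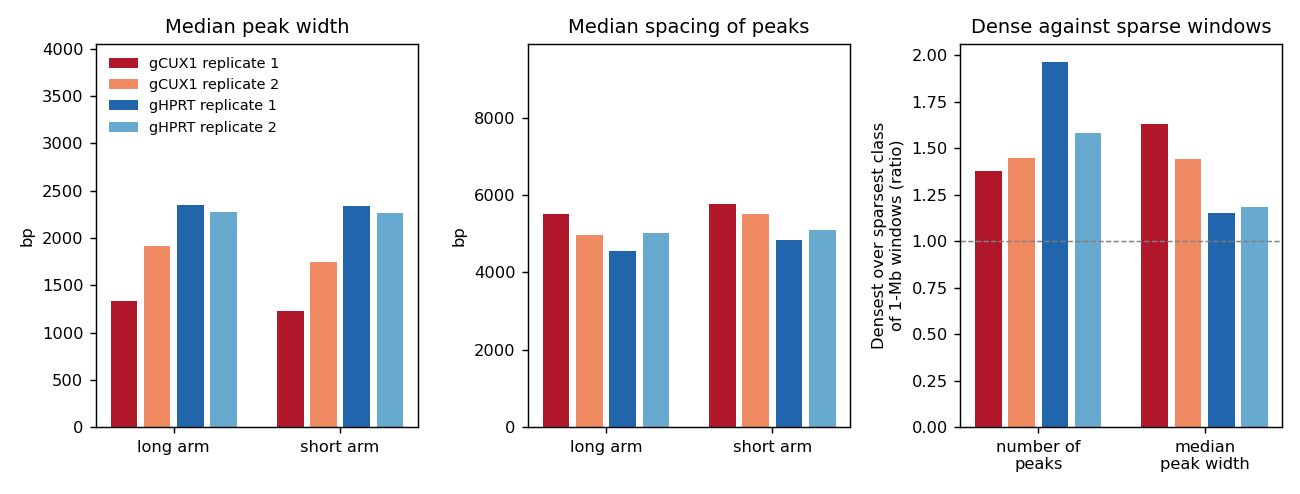
Median peak width and median spacing of neighbouring peaks on the long and short arm in each library (bars start at 0), and the ratio of the densest to the sparsest of 4 equal classes of 1-Mb windows of the long arm in number of peaks and in median width. The gCUX1 bars are lower in width on both arms, the spacings of the groups overlap on the long arm, and the width ratios of 1.63 and 1.44 in gCUX1 stand above 1.15 and 1.18 in gHPRT. All values are from the lists as deposited.

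Coverage varied along the arm in much the same places in all 4 libraries. Over the 136 windows of 1 Mb with a mean of at least 1%, Pearson's r between libraries was 0.768 to 0.885, as a description of windows that are not independent of their neighbours. Over the 1350 windows of 100 kb that met the same limit it was 0.370 to 0.505. The limit left out 3 of 139 windows of 1 Mb and 36 of 1386 windows of 100 kb. Within a library, coverage of a 1-Mb window had an r of 0.557 to 0.586 with that of the next window and of -0.01 to 0.11 with that of the 5th window along, so dense and sparse stretches were a few Mb long.

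The 5 most densely covered windows of 1 Mb started at 79000001, 103000001, 139000001, 56000001 and 174000001. The densest, chr4:79000001-80000000, had 22.95% and 33.8% under peaks in the gCUX1 libraries and 38.4% and 35.2% in the gHPRT libraries. The window chr4:103000001-104000000, which holds the widest peak of gCUX1 replicate 2, had 21.9% and 37.7% in the gCUX1 libraries against 39.7% and 29.8% in the gHPRT libraries. It was the highest window of the arm in gCUX1 replicate 2 and in gHPRT replicate 1, and the 20th and 26th from the highest in gCUX1 replicate 1 and gHPRT replicate 2. Dense runs of at least 3 windows lay at 72000001 to 75000000, 78000001 to 83000000, 153000001 to 156000000 and 173000001 to 176000000.

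Sparse stretches were longer. The longest ran over 8 windows, from 59000001 to 67000000, and had 10.2% and 14.0% under peaks in the gCUX1 libraries and 15.2% and 17.1% in the gHPRT libraries. Others lay at 91000001 to 94000000, 115000001 to 120000000, 131000001 to 135000000, 160000001 to 164000000 and 179000001 to 182000000. The last full window of the arm, chr4:190000001-191000000, was also among the 5 lowest, with 5.73% and 10.3% in the gCUX1 libraries and 12.6% and 12.8% in the gHPRT libraries. The coverage ratio of gCUX1 to gHPRT did not separate the kinds of stretch, being 0.749 to 0.871 in the 6 sparse runs and 0.767 to 0.847 in the 4 dense runs.

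**Figure D3:**
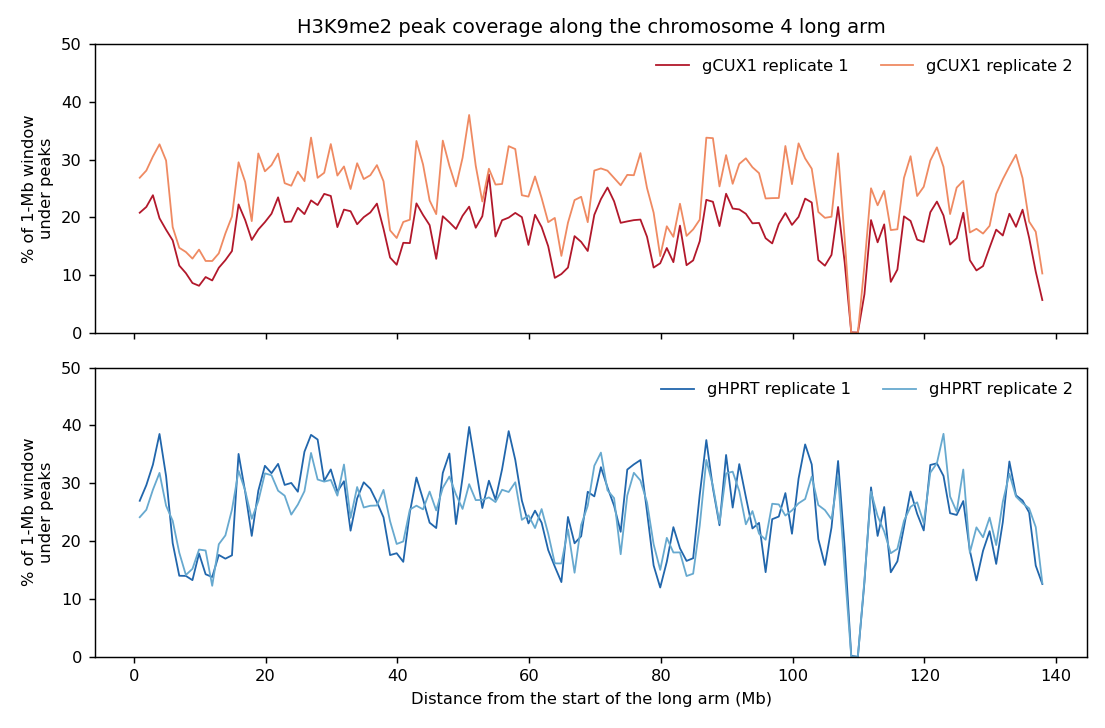
Percent of each 1-Mb window under H3K9me2 peaks along the long arm of chromosome 4, by distance from the start of the arm, for the gCUX1 libraries (upper panel) and the gHPRT libraries (lower panel). The same hills and hollows recur in all 4 libraries, and all 4 reach about 0 at 108.9 and 109.9 Mb from the start.

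Dense and sparse windows were compared by the number and the width of their peaks. Windows of 1 Mb were ordered by their mean coverage over the 4 libraries and cut into 4 classes of 34 or 35 windows. The densest class was covered 2.03 and 1.93 times as much as the sparsest in the gCUX1 libraries and 2.20 and 1.80 times in the gHPRT libraries. It held 1.38 and 1.45 times as many peaks per window in the gCUX1 libraries, against 1.96 and 1.58 times in the gHPRT libraries. Its peaks were 1.63 and 1.44 times as wide in the gCUX1 libraries, against 1.15 and 1.18 times in the gHPRT libraries. Both gCUX1 libraries had a larger ratio of width and a smaller ratio of number than both gHPRT libraries. These ratios were taken only from the lists as deposited and only on the long arm. Whether they depend on where the lists were cut was not tested. Within a library, the ratio of number was above that of width in both gHPRT libraries, below it in gCUX1 replicate 1 and about equal to it in gCUX1 replicate 2. The gCUX1 to gHPRT ratio of coverage was 0.820, 0.840, 0.863 and 0.812 from the sparsest to the densest class, so the amount kept was much the same at all densities.

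The most marked feature of the profile was a stretch of 3.1 Mb with hardly any peak, chr4:160500001-163600000. All of its 31 windows of 100 kb were under 2% in every library. It held 13 and 2 peaks in the gCUX1 libraries and 4 and 2 in the gHPRT libraries, which covered 7501 and 691 bp of it against 3282 and 803 bp. In percent this was 0.242 and 0.0223 in gCUX1 and 0.106 and 0.0259 in gHPRT. The edges were sharp. In the 1 Mb before it peaks covered 23.3% and 31.6% in the gCUX1 libraries and 35.6% and 29.5% in the gHPRT libraries, and in the 1 Mb after it 20.2% and 27.2% against 31.9% and 29.8%. The running numbers gave 27 and 4 called peaks in the stretch in the gCUX1 libraries and 28 and 4 in the gHPRT libraries, so few were found there even before the lists were cut. Without it the arm was covered to 17.7% and 24.7% in the gCUX1 libraries and 25.5% and 25.3% in the gHPRT libraries. Of the 25 runs of at least 20 such windows in the genome that did not reach a chromosome end, this one and 1 on chromosome 9 (chr9:28100001-32200000) were the 2 that held peaks in at least 3 windows. Peak lists do not tell a stretch without reads from one without enrichment.

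**Figure D4:**
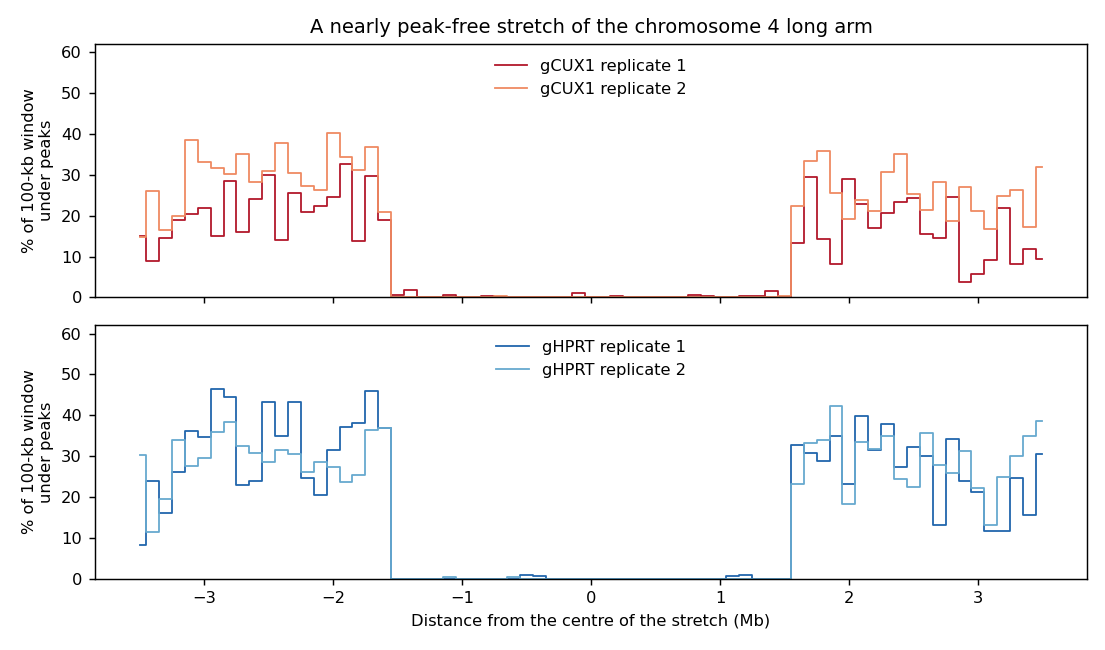
Percent of each 100-kb window under H3K9me2 peaks by distance from the centre of the nearly peak-free stretch, for the gCUX1 libraries (upper panel) and the gHPRT libraries (lower panel). Coverage lies under 2% in all 31 windows of the stretch in every library and returns to the level of the arm within 1 window on each side.

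In bins of 10 Mb, counted from the start of the arm, the lists as deposited had both gCUX1 libraries below both gHPRT libraries in 9 of 14 bins, and the groups overlapped in the other 5. On the short arm all 5 bins had gCUX1 below. The ratio of means was 0.780 to 0.912 on the long arm and 0.713 to 0.808 on the short arm. The highest, 0.912, was in chr4:142600001-152600000, where peaks covered 19.5% and 27.0% in the gCUX1 libraries and 25.3% and 25.7% in the gHPRT libraries. At equal covered length both gCUX1 libraries were above both gHPRT libraries in 14 of 14 bins, by ratios of 1.08 to 1.36. The highest ratio was then in chr4:132600001-142600000, with 16.8% and 15.6% in the gCUX1 libraries and 11.96% and 11.8% in the gHPRT libraries. The short arm had 3 bins higher, 1 lower and 1 with overlap, with ratios of 0.983 to 1.13. Bins were not counted over the rest of the genome, so no share over the genome stands beside these counts. The 14 bins are pieces of 1 arm, whose ratio as a whole was 1.20 at equal covered length, and are not separate results.

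**Figure D5:**
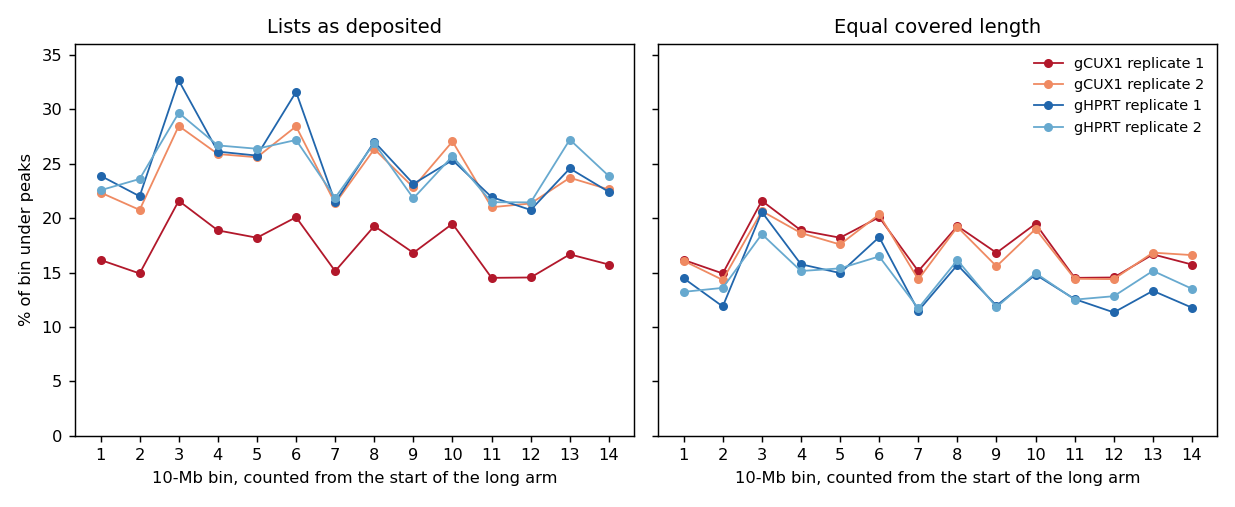
Percent of each 10-Mb bin of the long arm under H3K9me2 peaks in each library, for the lists as deposited and at equal covered length of the genome; bins count from the start of the arm and the last, bin 14, holds 8.55 Mb. The gCUX1 libraries lie below the gHPRT libraries in 9 bins as deposited and above them in all 14 at equal length.

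Window by window, the long arm held fewer windows lower in gCUX1 than the genome did. Over windows of 1 Mb in the lists as deposited, both gCUX1 libraries were below both gHPRT libraries in 54 of 136 windows of the long arm, or 39.7%, beside 63.7% of all windows tested and 36 of 49, or 73.5%, on the short arm. They were above in 0 windows of the long arm, beside 1.48% of all. The median difference was -4.33 points on the long arm, -6.09 on the short arm and -6.32 over all windows. At equal covered length the count above was 80 of 136, or 58.8%, beside 27% of all windows and 17 of 49, or 34.7%, on the short arm. The count below was 2, or 1.47%, beside 23.4% of all. The median differences were then 2.57 points on the long arm, 1.13 on the short arm and 0.35 over all windows.

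In windows of 100 kb both gCUX1 libraries were below both gHPRT libraries in 413 of 1350, or 30.6%, beside 43.3% of all, and above in 81, or 6%, beside 4.98%. At equal covered length they were below in 101 of 1349, or 7.49%, beside 17.7%, and above in 457, or 33.9%, beside 21% of all.

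The limma fit over all windows of the genome called 0 windows of the long arm in either direction at an adjusted p of 0.05, at both window sizes. Over the genome 4.24% of 1-Mb windows fell and 0.0707% rose, and 0.098% of 100-kb windows fell and 0 rose. At an unadjusted p under 0.05, 1 window of 1 Mb was lower and 0 higher on the long arm, beside 16.9% and 0.283% of all, and 75 windows of 100 kb were lower and 5 higher, beside 14.3% and 0.693%. The counts turned on gCUX1 replicate 2. Without it, 66 of 136 windows of 1 Mb on the long arm fell, or 48.5%, beside 61.2% of all, and 36 of 1350 windows of 100 kb, or 2.67%, beside 8.3% of all. The gCUX1 group was then 1 library, assumed to vary as the gHPRT libraries did. Without any 1 of the other libraries 0 windows of the long arm passed. With 1 limit on −log10 p for all lists, that of the last peak of gCUX1 replicate 1, only that list stayed whole. Coverage was then higher in gCUX1 over the genome as well. The median difference of 1-Mb windows was 5.70 points on the long arm, 4.23 on the short arm and 3.37 over all windows. Under this limit 7 of 136 windows of 1 Mb on the long arm rose, or 5.15%, beside 0.614% of all. They started at 53000001, 81000001, 89000001, 95000001, 140000001, 145000001 and 151000001. The first of them had 20.8% and 18.2% in the gCUX1 libraries and 9.34% and 7.91% in the gHPRT libraries.

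The windows with the smallest unadjusted p did not pass the adjusted threshold. Among those of 100 kb, chr4:154100001-154200000 had the smallest p, with 10.6% and 18.9% under peaks in the gCUX1 libraries and 46.3% and 36.5% in the gHPRT libraries. The window chr4:128400001-128500000 had 20.7% and 23.7% in the gCUX1 libraries, against 48.0% and 46.1% in the gHPRT libraries, and chr4:175000001-175100000 had 24.3% and 19.8% against 44.4% and 49.8%. The other 2 lower windows started at 56600001 and 163900001, with differences of -27.0 and -21.7 points. The groups did not overlap in any of the 5, which were picked for a small p. The gCUX1 libraries were themselves far apart at 163900001, with 8.15% and 25.6% against 34.9% and 42.3% in the gHPRT libraries, and at 56600001, with 15.4% and 33.1% against 50.8% and 51.8%.

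Windows higher in gCUX1 were found as well. The window chr4:93100001-93200000 had 24.6% and 35.5% in the gCUX1 libraries, against 8.30% and 12.8% in the gHPRT libraries. The window chr4:64500001-64600000, inside the longest sparse run, had 17.1% and 13.3% against 4.37% and 3.55%, and chr4:141600001-141700000 had 31.5% and 32.5% against 11.7% and 15.5%. The other 2 started at 135100001 and 137300001, with differences of 17.6 and 10.9 points. Of these 5, 3 lay in chr4:132600001-142600000, the bin with the highest ratio at equal length. The windows and the bin were picked from the same peaks of the same libraries, so this is no separate support. None of the 5 windows passed the adjusted threshold.

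Among windows of 1 Mb, the 5 lower ones started at 121000001, 62000001, 190000001, 175000001 and 118000001, with differences of -10.6, -6.88, -4.65, -10.4 and -7.88 points. The first had 14.2% and 19.2% in the gCUX1 libraries and 28.5% and 26.1% in the gHPRT libraries. The 5 higher ones, at 183000001, 119000001, 126000001, 148000001 and 135000001, differed by 2.09 to 3.30 points, and their groups overlapped. The windows at 118000001 and 119000001 are neighbours and differed in opposite directions.

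Sharing was also measured base by base. The Jaccard index on the long arm, the bases covered in both libraries over those covered in either, was 0.152 between the gCUX1 libraries and 0.194 between the gHPRT libraries, and 0.152 to 0.192 for pairs across the groups. This index follows how much is covered. With covered length made equal it was 0.131 between the gCUX1 libraries, 0.123 between the gHPRT libraries and 0.119 to 0.130 across the groups, and with 1 limit on −log10 p it was 0.117, 0.0875 and 0.0929 to 0.101 in the same order. The gHPRT pair was thus the highest of the 6 pairs as deposited, and the gCUX1 pair was the highest under both settings just given. At a −log10 p of at least 2 a pair across the groups was the highest, gCUX1 replicate 2 with gHPRT replicate 2, at 0.0555. The gCUX1 pair then had 0.0165 and the gHPRT pair 0.0175, so no kind of pair led throughout. Of the members of a library, 44.2% to 56.7% touched a peak of another library by at least 1 bp, and 9.92% to 15.7% shared at least 50% of both peaks. The shares that peaks placed at random would give were not computed, so these shares do not measure how many peaks were reproduced. All 4 libraries together covered 1.27 Mb of the arm in common, or 0.915% of it, while 81.9 Mb, or 59.1%, lay under a peak of at least 1 library.

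Of the 11.2 Mb of the arm covered in both gHPRT libraries, gCUX1 replicate 1 covered 26.4%, gCUX1 replicate 2 covered 37.7% and at least 1 of them 52.8%. On the short arm, where the gCUX1 lists covered less, the shares were 24.2%, 36.1% and 49.3%. With covered length made equal they were 28.8%, 32.4% and 50.8% on the long arm and 27.3%, 33.6% and 50.03% on the short arm, so the order of the arms turned for gCUX1 replicate 2. In the lists as deposited, gHPRT replicate 2 covered 32.4% of the long-arm bases of gHPRT replicate 1, which covered 32.7% of those of replicate 2. The gCUX1 libraries covered 17.3% and 24.1% of the whole long arm. The shares kept therefore do not by themselves measure a loss in gCUX1. Bases covered in both gCUX1 libraries and neither gHPRT library came to 3.06 Mb of the long arm, and bases covered in both gHPRT libraries and neither gCUX1 library to 5.28 Mb. At equal covered length this order turned, with 3.15 Mb in both gCUX1 libraries alone and 2.13 Mb in both gHPRT libraries alone. In both cases the larger amount was in the group with the higher coverage of the arm. Amounts expected from coverage alone were not computed, so these bases are not read as sequence particular to a group.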

How the data were processed

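Profiles of H3K9me2 in 4 libraries were compared, grouped and numbered as their titles give. The submitters' processing notes name BWA 0.7.17, MACS2 2.1.0, SAMtools 1.16.1 and deepTools 3.5.1, with build hg19; settings and any background library are not given in the sources used here. Broad peaks were deposited as a separate list for each library. Each deposited peak carries a score, a fold (a ratio over local background), a −log10 p and a −log10 q, which are the authors' own values and served only for describing, ranking and filtering. Each list ended at 250000 peaks ordered by −log10 p, so the lists were cut at different limits.

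The arm, its comparator, the windows and the tests were chosen with earlier results of these data known. Percent covered was the share of a window, bin or arm under at least 1 peak, computed with Python 3.11.15 and pandas 2.3.3. Windows of 1 Mb and 100 kb with a mean of at least 1% over the 4 libraries were tested across chromosomes 1 to 22 and X in limma 3.58.1 under R 4.3.3 (eBayes, trend on, adjusted p of 0.05 by Benjamini-Hochberg). Log2 coverage of 41 chromosome parts was fitted in limma without the trend, from parts of at least 5 Mb beside gaps of at least 2.0 Mb. The fits were also run on simulated data. The drops set there were larger than the differences given for the arm, so those runs do not show that smaller changes would be found. Windows named were the 5 per direction with the largest difference past the threshold or, where none passed, with the smallest unadjusted p; also named were the 5 highest and 5 lowest windows of 1 Mb, and the widest peaks. The 10-Mb bins, runs, density classes and the nearly peak-free stretch were chosen after their values were seen. An exact permutation test of 2 libraries against 2 cannot give a p below 0.333 and was used only in comparing settings. Alternatives were 1 limit on −log10 p or on −log10 q for all lists, equal covered length, a −log10 p of at least 2, gaps of up to 2000 bp filled, arm ends left out, quantile normalization, no filter, a replicate block and leaving out each library. The limit on −log10 p was 1.49, and that on −log10 q was 0.0335, the median over all peaks. A −log10 q this low is far from a q of 0.05, so this limit is not one of significance. Coordinates are hg19, counted from 1. No sequence was used.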

Additional observations from a re-analysis of the deposited data

How the results depend on the processing

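The coverage difference on the long arm, -4.12 points as deposited, turned positive with 1 limit on −log10 p (6.01), 1 limit on −log10 q (6.55), equal covered length (2.86) and a −log10 p of at least 2 (0.497). Under the same settings, in that order, the spacing difference of 461 bp became -6534.75, -12763.5, -2412.5 and -69940.5 bp, and the mean Jaccard index of 0.172 became 0.0985, 0.0852, 0.125 and 0.0236. The share of members overlapped was 0.498 at 1 bp and 0.129 at 50% of both peaks. The number of 1-Mb windows called, 0, became 7 with 1 limit on −log10 p, beside 0.614% of all windows, 1 with a replicate block, beside 8.16%, and 0 to 66 without 1 library, beside 3.32% to 61.7%. That of 100-kb windows was 0 to 36 without 1 library, beside 0.0327% to 8.39%. The windows higher in both gCUX1 libraries at equal covered length, 80, became 92 to 103 without 1 library, when fewer libraries must lie apart, beside 39.8% to 42.9% of all windows; this alternative was chosen after seeing the data, as was that for the long to short arm ratio of width. The ratio of long to short arm coverage and that of width kept the direction of their mean difference under every setting run for them. At a −log10 p of at least 2 the coverage ratio was 1.13 and 1.01 in the gCUX1 libraries and 0.907 and 0.970 in the gHPRT libraries. The gCUX1 values were then no longer close together. Long-arm coverage against the genome was 1.17 and 0.887 times in gCUX1 and 0.892 and 0.789 times in gHPRT, so the groups overlapped.

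With 1 limit on −log10 p, the lower 1-Mb windows at 121000001, 62000001, 190000001, 175000001 and 118000001 differed by 5.57, 4.03, 2.501, 5.998 and 2.77 points, and with 1 limit on −log10 q by 3.69, 1.77, 1.78, 8.42 and 1.80. At equal covered length the first 4 differed by 2.13, 1.58, 1.38 and 0.0987, and at a −log10 p of at least 2 the window at 175000001 by 0.963. With 1 limit on −log10 q the 100-kb windows at 154100001, 175000001 and 163900001 differed by 1.30, 7.94 and 1.80, and at a −log10 p of at least 2 that at 175000001 by 5.33. Leaving out 1 library gave -0.306 to 5.93 points for the higher window at 119000001, -0.594 to 5.90 for that at 126000001 and -1.02 to 5.85 for that at 148000001. The cause of these changes was not tested beyond the number of peaks kept.

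The labels give groups the same replicate numbers but no shared culture or day. Same-numbered libraries had deviations from their group means that correlated at 0.173 over 1-Mb windows of the genome and at -0.327 on the long arm. The replicate block gave 231 calls over the genome in place of 122 at 1 Mb and 173 in place of 27 at 100 kb; on the long arm it called the window at 62000001. Read depth is not in the files, so no value carries a counting error.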
